A study of Mus musculus with 12 samples.

Results

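Liver RNA of mice labelled doxo was compared with liver RNA of control mice across all genes with enough signal to test. The comparison used 8 of the 12 RNA-seq libraries of the series, 4 in each group. Its members were the 10883 genes, of 55903 in the deposited table, whose mean was at least 1 TPM over the 12 libraries. TPM is the share of a library's transcripts that come from a gene, corrected for gene length and scaled to a fixed total.

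The control libraries are titled young control and carry the condition young. The other 4 compared libraries carry conflicting labels: their titles and condition call them aged controls, while their descriptions, the design text and the table's columns call them doxo. The abbreviation is read here as doxorubicin, the group is called doxo below, and the labels do not settle whether the mice were aged, given the drug, or both. A further 4 libraries, described as doxo-KSL0608-Se and titled as treated with the coded compound KSL0608-Se, entered the fit only to estimate the spread. By its title, the series concerns killing senescent cells with a light-activated agent, and the question here is how doxo liver differed from control liver. The sources used here give no strain, sex, age in weeks, dose, route or time. Nothing ties animals to libraries, so the spread behind each p-value is that of libraries and may be technical.

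Doxorubicin slips between DNA bases and traps topoisomerase II on broken DNA. Broken DNA stabilises the transcription factor p53, which switches on genes that halt the cell cycle, repair DNA or kill the cell. Cells that stay arrested can become senescent, a lasting arrest held by the inhibitors p21 (Cdkn1a) and p16 (Cdkn2a) and often joined by secretion of cytokines and proteases. In liver the drug is taken up by hepatocytes, which also reduce it with carbonyl reductases and quinone reductases, and its quinone ring can feed electrons to oxygen. Oxidants and reactive drugs release the factor NRF2, which drives glutathione S-transferases and related enzymes. Hepatocytes of mice also carry a sex-biased programme, set by pulses of growth hormone acting through STAT5b, whose most abundant products are the major urinary proteins (Mup).

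The start regions of the p53 target genes that separated the groups, and of the 1 gene that passed the test over all genes, are shown because p53 binds DNA at pairs of a short motif. Each sequence runs 5′ to 3′ on the gene's strand and ends at the base before the RefSeq start site on GRCm38.p6, except for Aen, for which the 30 bases around its motif after the start are given. Capitals mark matches to the p53 half-site, which is 3 purines, C, a pair of A or T positions, G and 3 pyrimidines, searched on both strands.
Cdkn1a (chr17:29090729-29090978, plus strand): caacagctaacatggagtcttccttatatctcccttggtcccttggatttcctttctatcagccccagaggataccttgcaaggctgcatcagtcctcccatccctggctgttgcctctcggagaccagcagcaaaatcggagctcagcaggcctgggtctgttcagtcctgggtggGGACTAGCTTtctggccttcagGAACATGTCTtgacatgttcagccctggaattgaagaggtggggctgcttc
Bax (chr7:45466899-45467148, minus strand): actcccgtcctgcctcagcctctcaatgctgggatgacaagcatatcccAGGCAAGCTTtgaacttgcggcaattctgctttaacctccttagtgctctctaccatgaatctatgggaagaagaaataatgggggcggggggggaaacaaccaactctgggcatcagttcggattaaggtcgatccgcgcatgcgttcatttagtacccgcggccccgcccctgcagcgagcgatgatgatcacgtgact
Aen (chr7:78895927-78895956, plus strand): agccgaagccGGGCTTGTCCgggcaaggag
Phlda3 (chr1:135765835-135766084, plus strand): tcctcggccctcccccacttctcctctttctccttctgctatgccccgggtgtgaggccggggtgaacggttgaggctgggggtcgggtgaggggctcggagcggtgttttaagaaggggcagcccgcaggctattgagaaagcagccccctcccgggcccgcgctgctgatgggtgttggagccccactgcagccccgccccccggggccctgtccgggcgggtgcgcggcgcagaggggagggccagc
Gdf15 (chr8:70632457-70632706, minus strand): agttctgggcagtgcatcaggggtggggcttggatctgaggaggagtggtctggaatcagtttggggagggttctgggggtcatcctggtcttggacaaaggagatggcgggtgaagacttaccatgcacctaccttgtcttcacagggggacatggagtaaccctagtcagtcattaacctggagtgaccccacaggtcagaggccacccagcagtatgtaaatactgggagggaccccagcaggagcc
Gm45941 (chr12:27945792-27946041, plus strand): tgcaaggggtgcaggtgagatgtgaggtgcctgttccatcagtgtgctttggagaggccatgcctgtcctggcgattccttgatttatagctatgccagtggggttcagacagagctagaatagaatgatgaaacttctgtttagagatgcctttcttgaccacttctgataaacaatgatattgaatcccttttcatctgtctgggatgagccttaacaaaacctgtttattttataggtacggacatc
The Cdkn1a window held a pair of half-sites, at -73 to -64 and -51 to -42 from the start site. Bax held 1 at -201 to -192 and Aen 1 at 11 to 20 after the start, while the windows of Phlda3, Gdf15 and Gm45941 held no match. Among 32851 promoter windows of 300 bases, 2745 held at least 1 half-site (8.36%) and 24 held a pair no more than 13 bases apart (0.0731%). By gene symbol, 9.55% of 27025 genes held a half-site, against 10 of the 22 p53 target genes tested here that had a window. Of the 12 leading higher genes, 2 of 11 with a window held one, and of the 12 leading lower genes 1 of 9. A match of letters is a description and not a binding site, and no match says only that these letters are not in this window.

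The tissue label held in the values. All 7 hepatocyte markers were measured, with a summed level of 45520 to 65235 TPM in control and 40282 to 71245 TPM in doxo libraries. Markers of other cells summed to far less. Erythroid markers, the next highest, summed to 836 to 1991 TPM in control and 1839 to 2568 TPM in doxo libraries, and Kupffer cell markers to 84.5 to 139.9 and 34.0 to 224 TPM. Of 5 pancreatic acinar markers, Prss2 and Cpa1 were listed at 0 in all of the libraries compared and 2 had a mean of 1 TPM or more, for a sum of 60.7 to 91.7 TPM in control and 21.5 to 75.6 TPM in doxo libraries. Striated muscle markers summed to at most 12.5 TPM, with Tnnt3 at 0, and neutrophil markers to at most 7.02 TPM, with Ly6g at 0. The part of such cells in the results was not tested. Doxo library 2 stood apart from the others: mitochondrially encoded genes held 27.6% of its TPM, against 9.82% to 11.5% in the other doxo and 8.10% to 12.4% in the control libraries. It had the lowest value of the 8 libraries in 5978 of the 10883 genes (54.9%) and the highest in 807 (7.42%). Control library 1 was lowest in a further 2421 genes (22.2%). The groups did not separate on any of the 4 library measures (genes at 1 TPM or more, mitochondrial share, share of the 50 most abundant genes and slope on gene length), with exact permutation p from 0.229 to 0.914. Read depth cannot be recovered from TPM, so no counting error is attached to any value.

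Few genes separated doxo liver from control liver. Some p53 targets, glutathione S-transferases and connective tissue genes were among those higher in every doxo library, and major urinary proteins were among those lower. A single gene, the long noncoding RNA gene Gm45941, passed the test over all genes (limma, adjusted p under 0.05), which is 0.00919% of the genes tested. At an unadjusted limma p under 0.05 there were 130 genes with higher (1.19%) and 85 with lower (0.781%) means in doxo libraries. Every doxo library lay above every control library in 75 genes (0.689%), 59 of them protein coding, and below in 34 genes (0.312%), 10 of which were Mup genes or pseudogenes. Of the 75 genes 14 belonged to a gene list described here, and of the 34 genes 7 did. The excess of higher genes depended on settings: genes above and below numbered 76 and 86 with quantile normalization, 75 and 74 with a total without mitochondrial and the 50 most abundant genes, 90 and 68 with median-of-ratios scaling, 121 and 240 without control library 1, and 109 and 110 without doxo library 4. These shares of all genes are the background for each group count below. Lists and members were chosen with earlier results of these data known, so counts against that background describe them and are not a test. A gene whose groups do not overlap has an exact permutation p of 0.0286, the smallest that 4 against 4 libraries allow. Separated genes were a smaller share of all genes than that. An unadjusted limma p under 0.05 was found in 1.98% of genes, also under its nominal share. Neither therefore shows a difference in a gene by itself. The median log2 fold change over all genes was -0.08, on the log2(TPM + 1) scale used throughout, which understates the change of genes near 1 TPM. It was positive in 3833 genes (35.2%), the background for counts of positive members below. The 95% interval of a single gene reached 0.57 to either side at the median, and for 8498 genes (78.1%) it lay within -1 to 1. Differences well inside that half-width were not detectable with 4 libraries a group.

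**Figure D1:**
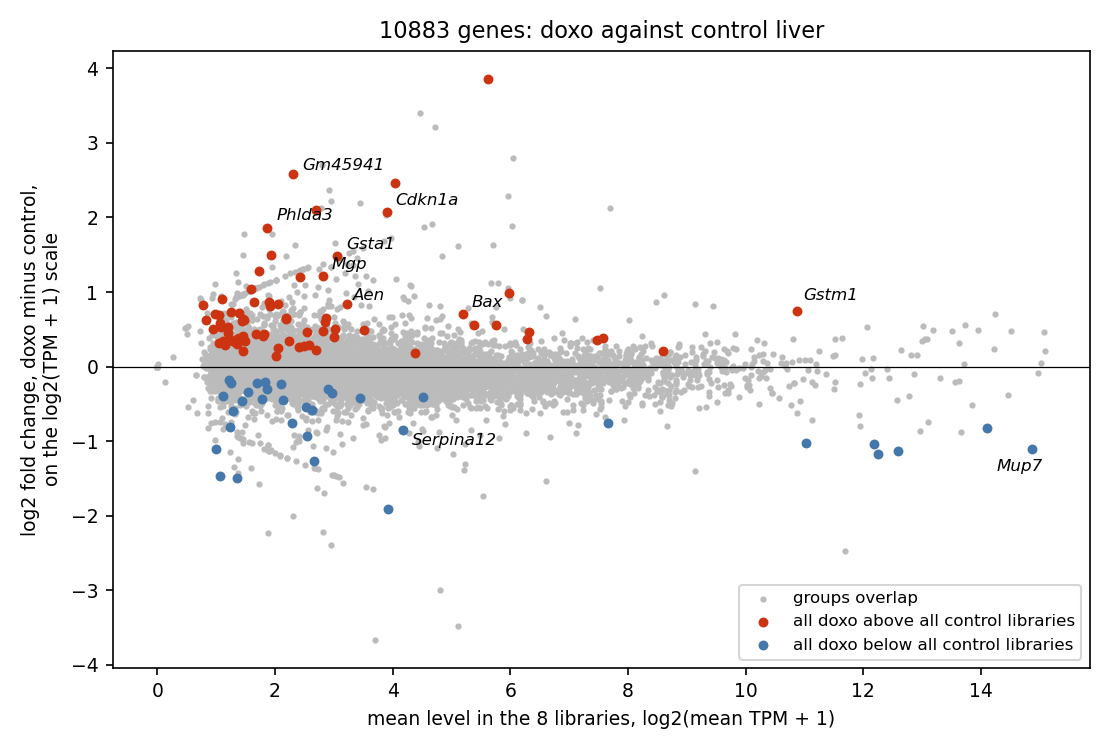
Each point is 1 of the 10883 genes; the x axis gives its mean level in the 8 libraries as log2(mean TPM + 1) and the y axis the log2 fold change of doxo minus control. Red points are the 75 genes with all doxo libraries above all control libraries and blue points the 34 with all below, among them Mup7 at the far right; grey genes overlap between groups.

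Gm45941, on chromosome 12 from 27946042 to 27982234 (GRCm38, GENCODE M21, as for all gene positions here), is annotated as a lincRNA. Its control libraries stood at 0.32, 0.33, 0.13 and 0.63 TPM and its doxo libraries at 6.77, 4.20, 12.3 and 6.84 TPM, in library order 1 to 4 as in all such lists below. The groups were far apart, with the lowest doxo library above the highest control library by several TPM. The log2 fold change was 2.59 (95% interval 1.90 to 3.28, limma adjusted p = 0.0227). Leaving out any 1 of the 8 libraries gave 2.35 to 2.80, but the limma adjusted p then ran from 0.0229 to 0.168 and stayed under 0.05 only without doxo library 2 or control library 4. The limma adjusted p was 0.0823 with the 8 libraries fitted alone, 0.208 with no filter and 0.244 with a replicate block. With a pseudocount of 0.1 the log2 fold change was 4.09. At a control mean of 0.35 TPM, the gene passed the filter only through libraries described as doxo. The same held for Phlda3, Cplane1, Igfbp5, Atp8b5, Col1a1, Snhg11, Cyp2a4, Dbp and Cyp2b9 below, whose control means were also under 1 TPM. The KSL0608-Se libraries, which share no sample with either group, stood at 9.56, 16.0, 16.1 and 6.27 TPM.

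Among the arrest and feedback targets of p53, Phlda3 and Cdkn1a had the clearest separation between doxo and control liver. Of 16 tested arrest and feedback targets, 3 lay wholly above the control libraries (Phlda3, Cdkn1a and Gdf15), 6 had an unadjusted limma p under 0.05 with a higher mean, none lay below, and the median log2 fold change was 0.31. None of the 16 passed after adjustment over all genes. Cdkn1a did pass with median-of-ratios scaling, quantile normalization, the total without those abundant genes, a gene-length covariate or array weights (limma adjusted p from 0.000633 to 0.0361). Phlda3 passed with pseudocounts of 0.1 and 0.01, median-of-ratios scaling, the same reduced total, array weights or without KSL0608-Se library 4 (limma adjusted p from 0.00383 to 0.0392). Without doxo library 2 the median was 0.46 with 6 members wholly above, against 244 genes of all tested (2.24%). Without control library 1 the median was 0.19. The median of all genes was -0.08 as reported, 0.10 without doxo library 2 and -0.21 without control library 1.

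Cdkn1a encodes p21, the inhibitor of cyclin-dependent kinases through which p53 stops the cell cycle. It stood at 1.89, 8.89, 3.41 and 5.74 TPM in control and 31.7, 12.8, 25.8 and 20.8 TPM in doxo libraries. The lowest doxo library was library 2, still above the highest control library. The log2 fold change was 2.07 ± 0.37 (SE, n = 4 per group; limma adjusted p = 0.307). Phlda3, which competes with the kinase AKT for membrane lipids, stood at 0.60, 0.50, 0.29 and 0.85 TPM in control and 5.47, 2.84, 5.10 and 5.56 TPM in doxo libraries. Again library 2 was the lowest of the doxo group, and the log2 fold change was 1.86 ± 0.29 (SE, n = 4 per group; limma adjusted p = 0.148).

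Trp53inp1 and Ccng1 had 3 high doxo libraries and a low library 2. Trp53inp1, a p53 cofactor and autophagy gene, stood at 1.49, 3.22, 2.01 and 3.39 TPM in control and 7.10, 2.13, 6.23 and 5.24 TPM in doxo libraries (log2 fold change 0.76, 1.06 without doxo library 2). Ccng1, the cyclin G1 gene, stood at 3.73, 5.32, 4.87 and 5.68 against 12.9, 3.69, 12.4 and 7.47 TPM (log2 fold change 0.66, 0.99 without library 2). In both genes doxo library 2 was the 1 doxo library that did not lie above the control values. Gdf15, a stress-induced hormone that curbs appetite, was even across the doxo libraries at 7.43, 7.41, 7.89 and 8.33 TPM, against 3.43, 3.32, 6.35 and 5.87 TPM in control. Its log2 fold change was 0.65. Plk2, a stress-induced polo-like kinase, had a log2 fold change of 0.61, with overlapping groups.

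Feedback and sensor genes of the same programme separated less. Mdm2, which tags p53 for destruction and is itself a p53 target, stood at 2.40, 7.25, 3.33 and 5.60 TPM in control and 7.86, 8.20, 6.57 and 4.47 TPM in doxo libraries, a log2 fold change of 0.52 (95% interval -0.08 to 1.12, 0.30 without control library 1). Sesn2, a stress sensor that restrains mTORC1, had a log2 fold change of 0.26, the antiproliferative gene Btg2 0.35, and the growth arrest gene Gadd45a 0.20, each with an interval that includes 0. Btg2 was 0.60 without doxo library 2 and 0.07 without control library 1, and Gadd45a 0.50 and -0.10. The p53 gene itself, Trp53, was close to level, at 9.19, 11.4, 11.4 and 9.49 TPM in control and 10.96, 10.2, 10.95 and 11.6 TPM in doxo libraries (log2 fold change 0.07, 95% interval -0.26 to 0.41). Of the 5 listed targets under the filter, Eda2r, a receptor of the tumour necrosis factor family, stood at 0.01, 0.01, 0.07 and 0.03 TPM in control and 0.49, 0.20, 0.36 and 0.36 TPM in doxo libraries. Those levels are low but do not overlap, and the gene was not tested. It is the only 1 of the 5 described here. With no filter, 262 of 25019 genes lay wholly above the control libraries.

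**Figure D2:**
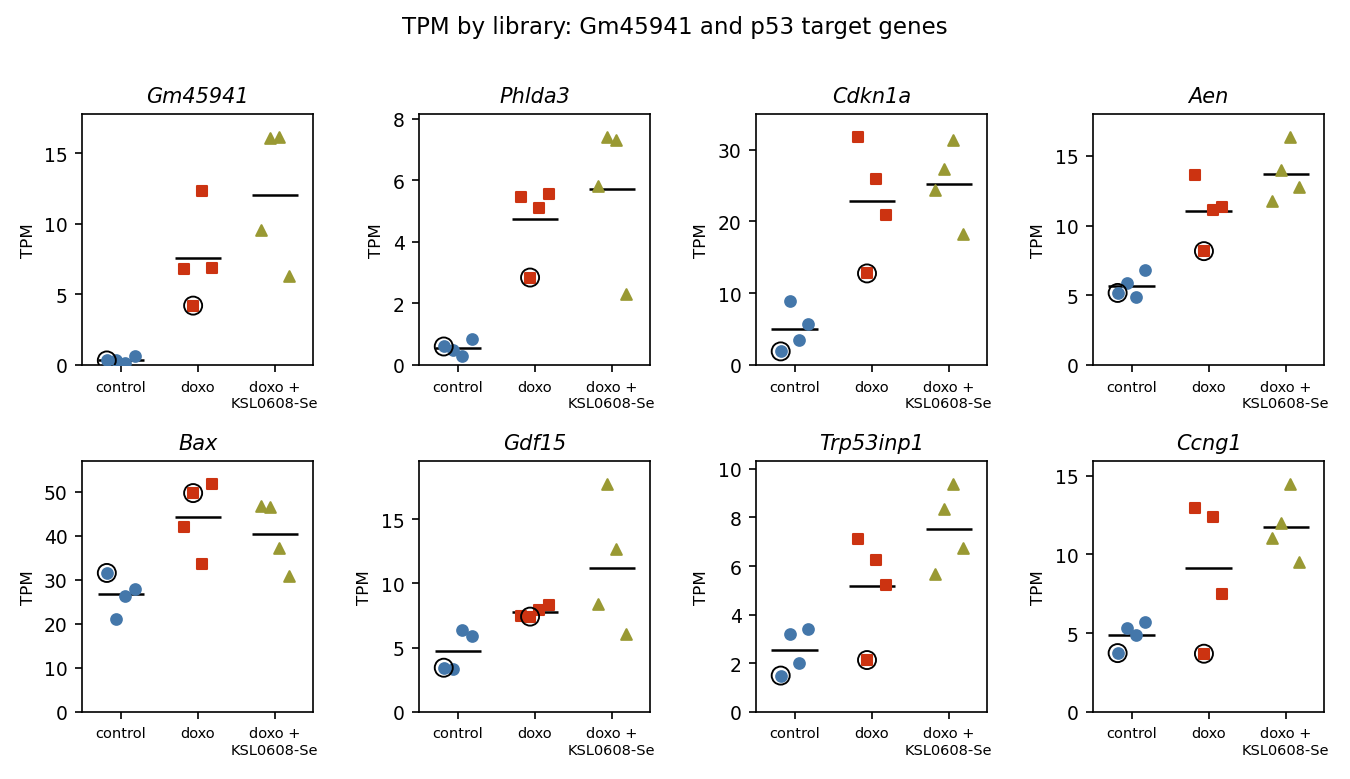
TPM (y axis, from 0) of Gm45941 and 7 p53 target genes in each library, by group (x axis); black lines are means of 4 libraries, and open circles mark control library 1 and doxo library 2. Doxo library 2 is the lowest doxo point for Cdkn1a at 12.8 TPM and for Trp53inp1 at 2.13 TPM, but not for Bax.

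In the death-promoting branch of the p53 response, Aen and Bax separated the groups. Of 9 tested apoptosis targets, these 2 lay wholly above the control libraries, none lay below, and the median log2 fold change was -0.03, close to that of all genes. Aen, a nuclease induced by p53, stood at 5.17, 5.88, 4.89 and 6.83 TPM in control and 13.6, 8.17, 11.2 and 11.4 TPM in doxo libraries. The log2 fold change was 0.84 ± 0.19 (SE, n = 4 per group; limma adjusted p = 1.0). Bax, which pierces the outer mitochondrial membrane, stood at 31.6, 21.1, 26.3 and 27.8 TPM in control and 42.1, 49.7, 33.7 and 51.8 TPM in doxo libraries (log2 fold change 0.70). Library 2 was the second highest of the doxo libraries for Bax, whereas it was the lowest for Cdkn1a, Phlda3, Trp53inp1 and Ccng1. Perp, a membrane protein of desmosomes and p53-driven death, stood at 44.7, 13.9, 44.9 and 33.7 TPM in doxo libraries and at 25.4 to 46.5 TPM in control (log2 fold change -0.18, 95% interval -0.88 to 0.52, 0.19 without library 2). Bid, a trigger of Bax, had a log2 fold change of -0.20 (0.07 without library 2), and Trp53i13 0.16.

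Senescence regulators other than Cdkn1a did not separate the groups with all 8 libraries. Of 15 tested senescence regulators none had an unadjusted limma p under 0.05 and none separated the groups, with a median of -0.01. Without doxo library 2, the chromatin genes Hmgb1 (log2 fold change -0.01, 0.26 without it) and Hmgb2 lay wholly above the control libraries, beside 2.24% of all genes, and the median was 0.10. For Hmgb1 the margin was narrow, at 48.57 TPM in doxo library 1 and 48.5 TPM in control library 4. Cdkn2a, which encodes p16 and ARF, was under the filter, at 0.32, 0.09, 0.00 and 0.00 TPM in control and 0.00, 0.05, 0.14 and 0.07 TPM in doxo libraries. Its neighbour Cdkn2b was also under it, at 0.14 to 0.25 TPM in control and 0.12 to 0.27 TPM in doxo libraries. Cdkn2c, a further inhibitor of CDK4 and CDK6, had a log2 fold change of -0.16 and the p27 gene Cdkn1b one of -0.12 (95% interval -0.58 to 0.34). Glb1, whose lysosomal galactosidase underlies the usual senescence stain, stood at 4.41 to 7.01 TPM in control and 3.20 to 6.51 TPM in doxo libraries (log2 fold change -0.18, 95% interval -0.63 to 0.27). Rb1, the retinoblastoma gene, had a log2 fold change of 0.51 that rested on library 2, at 16.0 TPM against 4.23 to 5.94 TPM in the other doxo libraries, and it was 0.14 without it. Hmgb2 stood at 2.87, 2.11, 3.27 and 2.96 TPM in control and 3.91, 1.13, 5.45 and 6.37 TPM in doxo libraries, a log2 fold change of 0.32 that was 0.70 without library 2. Cbx2, a polycomb gene, had one of 0.27.

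Secreted factors tied to senescence were mostly too low to test. Of 36 listed genes 17 passed the filter, 1 lay wholly above the control libraries (Gdf15), and the median log2 fold change was 0.17. Il6 was listed at 0 in all control libraries and at 0.07, 0.00, 0.00 and 0.12 TPM in doxo libraries. Cxcl1, a neutrophil attractant, stood at 1.77, 6.17, 3.69 and 2.14 TPM in control and 4.37, 2.94, 5.31 and 7.41 TPM in doxo libraries (log2 fold change 0.49). Igfbp1, a fasting- and stress-induced binding protein of insulin-like growth factors, varied widely, at 1.34, 6.90, 7.04 and 3.02 against 16.7, 0.97, 13.98 and 8.86 TPM. Its log2 fold change of 0.78 had a 95% interval of -0.63 to 2.18 and was 1.48 without doxo library 2 and 0.42 without control library 1. Spp1, the osteopontin gene, had a log2 fold change of 0.44, with overlapping groups.

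Targets and handlers of doxorubicin were near the background. Of 30 tested members none separated the groups, 1 had an unadjusted limma p under 0.05 (Nqo1), and the median was -0.04. Top2a, the topoisomerase of dividing cells and the classical target, was under the filter, at 0.17, 0.13, 0.30 and 0.17 TPM in control and 0.79, 0.52, 0.21 and 1.74 TPM in doxo libraries. The proliferation marker Mki67 stood at 0.04 to 0.15 TPM in control and 0.05 to 0.21 TPM in doxo libraries. Nqo1, a quinone reductase under NRF2 control, stood at 1.84, 2.67, 2.54 and 3.07 TPM in control and 4.55, 2.09, 5.40 and 5.99 TPM in doxo libraries (log2 fold change 0.59, 0.84 without doxo library 2). Cbr1, the carbonyl reductase that makes doxorubicinol, had a log2 fold change of 0.29 (95% interval -0.13 to 0.71, 0.44 without doxo library 2). Cyb5r3, a cytochrome b5 reductase, had one of -0.22 and the catalase gene Cat one of -0.25, against 0.02 and 0.08 without doxo library 2.

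Glutathione S-transferases were the NRF2 targets that separated the groups with all 8 libraries. Of 34 tested NRF2 targets 4 lay wholly above the control libraries, all of them transferases that join glutathione to reactive compounds. A total of 6 had an unadjusted limma p under 0.05 with a higher mean, none lay below, and the median was 0.10. Without doxo library 2 the median was 0.29 and 8 lay wholly above, as Nqo1, Cbr1, Ephx1 and Gsta4 (the last named after its values were seen) joined the 4. Gsta1 stood at 3.79, 1.22, 4.30 and 5.04 TPM in control and 11.8, 11.7, 12.2 and 8.62 TPM in doxo libraries (log2 fold change 1.48, 95% interval 0.80 to 2.16, limma adjusted p = 0.932). Doxo library 2 was in step with the others here. Gstm3 stood at 28.7, 50.8, 39.7 and 44.6 against 92.3, 59.1, 113.8 and 67.0 TPM (log2 fold change 0.98).

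Gstm1, the most abundant of the 4, stood at 1371, 1464, 1205 and 1273 TPM in control and 1796, 4305, 1899 and 1671 TPM in doxo libraries. Library 2 set much of its log2 fold change of 0.75, which was 0.43 without it, though the groups stayed apart. Gstm2, named because it completes the 4 and so chosen after its values were seen, had a log2 fold change of 0.47. Gstm1, Gstm2 and Gstm3 are close neighbours on chromosome 3 with similar sequence, so their separate values are uncertain. Among targets of other function, Aox1, the aldehyde oxidase gene, had a log2 fold change of 0.62 and Ephx1, the microsomal epoxide hydrolase gene, 0.62 (95% interval -0.10 to 1.34, 0.39 without control library 1), both with overlapping groups.

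Major urinary proteins, the most abundant transcripts of the male-biased programme, stood lower in doxo liver. Of 34 tested male-biased genes 7 lay wholly below the control libraries and 13 had an unadjusted limma p under 0.05 with a lower mean. None of the 34 had a positive log2 fold change, against 35.2% of all genes. Many of the 34, and 6 of the 7 wholly below, are Mup genes, most of them close in sequence. These counts are therefore not of separate measurements, and members outside the family were not counted apart. The median of the list was -0.59, against -0.30 without doxo library 2 and -0.59 without control library 1. The median of all genes was -0.08, 0.10 and -0.21 in the same fits. Mup7 stood at 50186, 37332, 44427 and 28720 TPM in control and 26818, 10230, 24548 and 16721 TPM in doxo libraries. The highest doxo library was just under the lowest control library, and the log2 fold change was -1.10 (95% interval -1.73 to -0.48, limma adjusted p = 1.0). Mup14 stood at 29521, 19312, 24111 and 17264 against 15641, 11064, 13699 and 10070 TPM (log2 fold change -0.83). Mup1, Mup12, Mup15 and Mup17 had log2 fold changes of -1.04, -1.03, -1.13 and -1.18. Control library 1 was the highest library for each of these 6 genes.

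The Mup genes cannot be read as separate measurements. The longest transcripts of these 6 genes, all on chromosome 4, were 98.2% to 99.6% identical over their 15 pairs, so reads can be shared out among them by the counting step. TPM also sums to a constant, so genes of this abundance can move every other value. The list held members outside the family. Ces4a, a carboxylesterase gene, stood at 1.65, 3.11, 2.00 and 1.28 TPM in control and 1.08, 0.29, 0.87 and 0.56 TPM in doxo libraries (log2 fold change -0.81). Selenbp2, a selenium-binding protein gene, had a log2 fold change of -1.40 that was -0.88 without doxo library 2. Ugt2b38, a glucuronosyltransferase gene, stood at 15.2, 11.8, 11.8 and 7.19 TPM in control and 11.7, 1.11, 2.40 and 2.15 TPM in doxo libraries (log2 fold change -1.56), so doxo library 1 alone lay among the control values.

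Genes opposite to and upstream of this programme were few or low. Of 21 female-biased genes 8 passed the filter, none separated the groups, and 1 had an unadjusted limma p under 0.05, with a median of 0.31. Without doxo library 2 the median was 0.59 and 2 lay wholly above, Cyp2b9 and Trim24, beside 2.24% of all genes. Cyp2b9 stood at 0.05, 0.00, 0.23 and 0.59 TPM in control and 0.72, 0.33, 0.66 and 0.83 TPM in doxo libraries. It passed the filter only through the KSL0608-Se libraries. The gene with an unadjusted limma p under 0.05 was Fmo2, a flavin monooxygenase gene. Fmo2 stood at 0.74, 0.65, 1.77 and 0.93 TPM in control and 1.56, 1.68, 2.10 and 2.75 TPM in doxo libraries (log2 fold change 0.59). Cyp2a4, a steroid hydroxylase gene, had a log2 fold change of 0.70 (95% interval -0.01 to 1.41). Of 11 tested growth hormone and STAT5 genes 1 had an unadjusted limma p under 0.05, the feedback inhibitor Socs2. It stood at 9.0, 4.75, 5.81 and 0.96 TPM in control and 1.90, 0.94, 1.00 and 1.45 TPM in doxo libraries (log2 fold change -1.20, 95% interval -2.04 to -0.36). Control library 4 alone lay in the doxo range. Igfals, the carrier subunit of circulating IGF1, had a log2 fold change of -0.41 (-0.19 without doxo library 2).

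**Figure D3:**
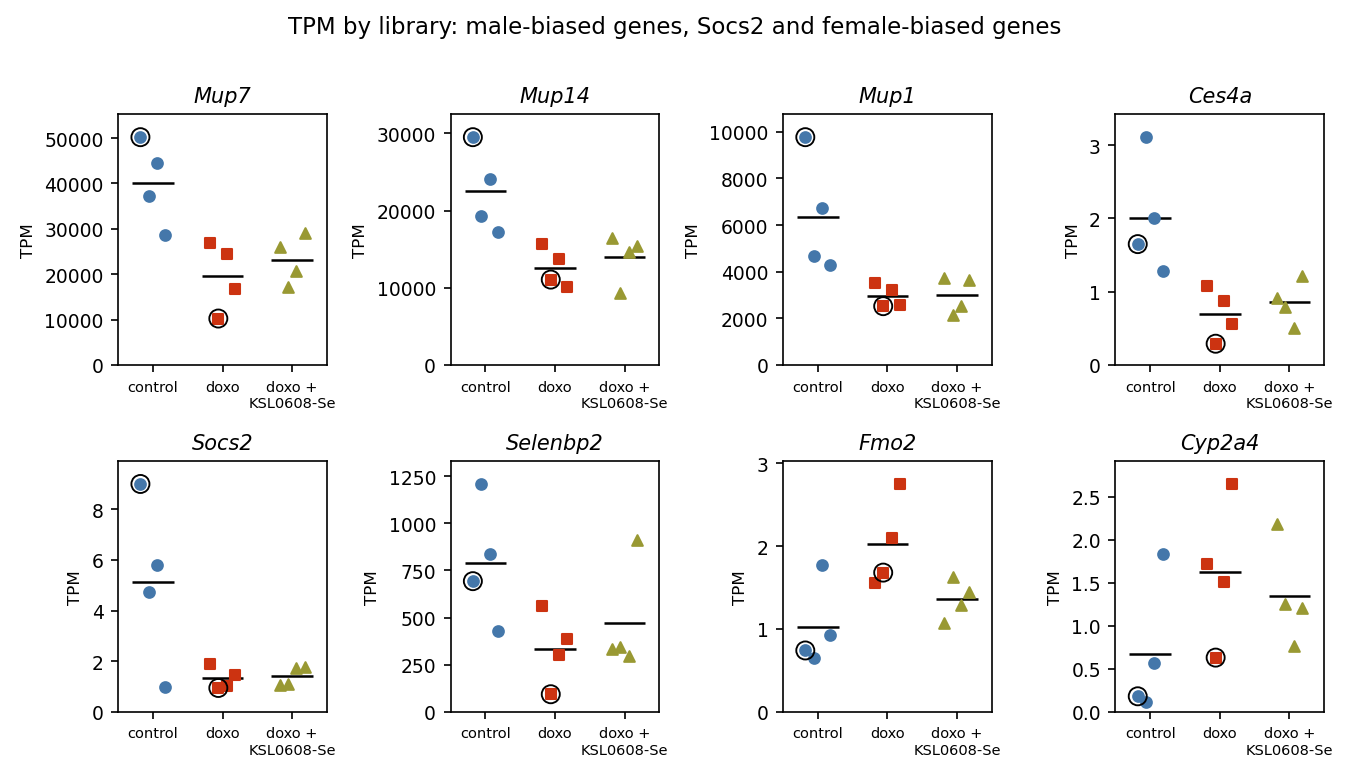
TPM (y axis, from 0) in each library, by group (x axis), of the male-biased genes Mup7, Mup14, Mup1, Ces4a and Selenbp2, of Socs2, and of the female-biased genes Fmo2 and Cyp2a4; black lines are means of 4 libraries and open circles mark control library 1 and doxo library 2. Mup7 runs from 28720 to 50186 TPM in control and from 10230 to 26818 TPM in doxo libraries.

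Connective tissue and contractile genes stood slightly higher. Of 24 tested genes of stellate cells, fibrosis and contraction 2 lay wholly above the control libraries and 6 had an unadjusted limma p under 0.05 with a higher mean. A positive log2 fold change was seen in 22, against 35.2% of all genes, and the list's median was 0.31. Mgp, a matrix protein that restrains calcification, stood at 2.49, 2.5, 3.45 and 3.90 TPM in control and 5.65, 6.24, 8.89 and 15.2 TPM in doxo libraries (log2 fold change 1.21, limma adjusted p = 1.0). Col1a1, a chain of type I collagen, was low throughout, at 0.38, 1.04, 0.66 and 0.82 against 1.30, 1.13, 1.24 and 2.32 TPM (log2 fold change 0.52). Its control mean was 0.725 TPM, so it passed the filter only through libraries described as doxo. Acta2, the smooth muscle actin of activated stellate cells and vessel walls, had a log2 fold change of 1.09 and Tagln, a smooth muscle actin-binding protein, 0.75. Both overlapped through control library 4.

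Outside that list, Dpt and Igfbp5 also separated the groups. Dpt, a collagen-binding matrix protein gene, stood at 1.34, 1.66, 2.16 and 1.54 TPM in control and 2.77, 3.01, 3.05 and 6.66 TPM in doxo libraries (log2 fold change 0.81). Igfbp5, a matrix-bound partner of insulin-like growth factors, stood at 0.66, 0.35, 0.49 and 0.81 against 1.40, 1.66, 1.19 and 1.98 TPM (log2 fold change 0.70). Doxo library 4 was the highest library for Mgp, Dpt, Igfbp5, Col1a1, Acta2 and Tagln. Summed stellate cell markers overlapped, at 21.7 to 39.5 TPM in control and 19.8 to 40.5 TPM in doxo libraries. In bulk tissue, more cells of a type and more RNA per cell cannot be told apart.

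**Figure D4:**
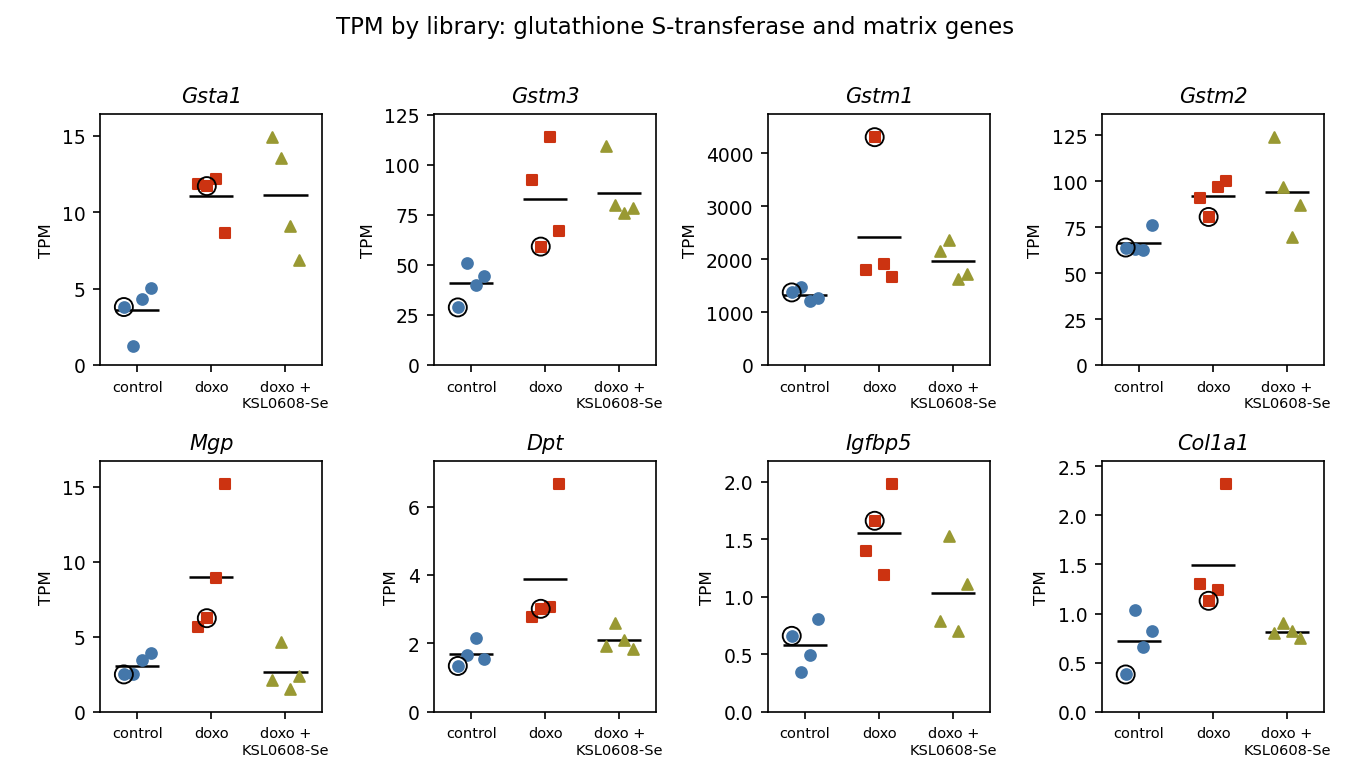
TPM (y axis, from 0) in each library, by group (x axis), of 4 glutathione S-transferase genes (top row) and 4 matrix genes (bottom row); black lines are means of 4 libraries and open circles mark control library 1 and doxo library 2. Doxo library 2 stands out for Gstm1 at 4305 TPM and doxo library 4 for Dpt at 6.66 TPM.

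Blood and immune genes gave smaller and less even differences. The 4 adult globin genes all had an unadjusted limma p under 0.05 with a higher mean, among 9 tested erythroid genes (median 0.37). Hba-a2 stood at 556, 342, 414 and 751 TPM in control and 764, 966, 1033 and 748 TPM in doxo libraries (log2 fold change 0.82), and control library 4 reached the doxo range. The log2 fold change was 0.87 for Hba-a1, 0.84 for Hbb-bs and 0.80 for Hbb-bt, and each pair of globin copies is similar in sequence. Of 21 tested Kupffer cell and macrophage genes none separated the groups and 2 had a positive log2 fold change, against 35.2% of all genes. Their median was -0.43, and -0.12 without doxo library 2.

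The macrophage genes ran from the lowest to the highest of all libraries within the doxo group. C1qb, a complement subunit made by macrophages, stood at 32.0, 52.1, 25.1 and 29.9 TPM in control and 24.4, 8.59, 13.1 and 65.8 TPM in doxo libraries (log2 fold change -0.66, 95% interval -1.67 to 0.36, -0.26 without doxo library 2). Csf1r, the receptor that keeps macrophages alive, stood at 5.14, 1.97, 1.83 and 11.4 TPM in doxo libraries, and Folr2, a marker of resident macrophages, at 8.41, 1.57, 4.34 and 22.8 TPM. Their log2 fold changes were -0.57 and -0.70, and -0.32 and -0.18 without library 2. In all 3 genes doxo library 4 was the highest of the 8. Stab1, a scavenger receptor of sinusoidal endothelium, was the only tested member of 24 endothelial genes with an unadjusted limma p under 0.05 (log2 fold change 0.91).

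Noncoding host transcripts and mitochondrial genes were entwined with doxo library 2. Of 19 tested snoRNA host and nuclear noncoding RNAs, 1 lay wholly above the control libraries, 2 had an unadjusted limma p under 0.05, and the median was 0.36 (0.21 without doxo library 2). Snhg15, a snoRNA host gene, stood at 2.03, 2.59, 1.45 and 1.78 TPM in control and 3.18, 5.16, 3.74 and 5.22 TPM in doxo libraries (log2 fold change 0.84, 0.76 without library 2). Snhg3 had a log2 fold change of 0.57, Snhg11 one of 0.84 (0.45 without library 2), and Rpph1, the RNA of ribonuclease P, one of 1.09 (0.70 without it). Neat1, the scaffold RNA of paraspeckles, named after its values were seen, stood at 10.9, 88.0, 34.9 and 17.9 TPM in doxo libraries and 11.7 to 22.6 TPM in control (log2 fold change 0.81, 0.27 without library 2).

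Of 15 mitochondrially encoded genes 14 had a positive log2 fold change, against 35.2% of all genes. Their median was 0.37, and 0.03 without doxo library 2. mt-Co1, a subunit of cytochrome c oxidase, stood at 12533, 59681, 14039 and 17538 TPM in doxo libraries and 11378 to 15504 TPM in control. mt-Atp8, a subunit of ATP synthase, had a log2 fold change of 0.46 (0.33 without library 2). The 56 nuclear-encoded respiratory chain genes had a median of -0.02.

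Several genes separated the groups without belonging to these sets. Mgmt, which removes alkyl groups from guanine, stood at 4.20, 4.29, 4.62 and 5.90 TPM in control and 7.36, 5.99, 8.76 and 8.73 TPM in doxo libraries (log2 fold change 0.59). Cplane1, a ciliary gene, stood at 0.44, 1.14, 0.80 and 1.03 against 5.48, 1.72, 5.41 and 2.47 TPM (log2 fold change 1.28). Atp8b5, a lipid flippase gene, stood at 0.04 to 0.42 TPM in control and 0.52 to 1.83 TPM in doxo libraries (log2 fold change 0.83). These 3 genes were lowest in library 2 among the doxo libraries.

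Among genes lower in all doxo libraries, Serpina12, which encodes the insulin-sensitising adipokine vaspin, stood at 18.6, 19.8, 26.4 and 24.2 TPM in control and 13.3, 9.19, 10.4 and 14.8 TPM in doxo libraries (log2 fold change -0.86). Nrep had a log2 fold change of -0.76, Ppp1r10, a nuclear targeting subunit of protein phosphatase 1, -0.54, Cbfb, the partner subunit of RUNX factors, -0.45, and Lurap1l -0.42. In these 5 genes library 2 was the lowest doxo library, and the log2 fold changes without it ran from -0.33 for Lurap1l to -0.75 for Serpina12. None passed after adjustment over all genes.

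The remaining liver programmes held few separated genes. None of 28 DNA repair genes, 16 cell cycle genes, 26 hepatocyte identity genes, 25 cholesterol synthesis genes, 33 PPARA and fatty acid oxidation genes or 19 urea cycle genes separated the groups or had an unadjusted limma p under 0.05. Their medians ran from -0.22 for cholesterol synthesis to 0.05 for the cell cycle. Positive log2 fold changes, at 35.2% over all genes, numbered 1 of 25 for cholesterol synthesis and 7 of 33 for PPARA genes. The count was 8 of 28 for DNA repair, 7 of 26 for hepatocyte identity and 5 of 19 for the urea cycle. For the cell cycle it was 11 of 16. Lipogenesis genes, with 5 of 27 positive, had a median of -0.23. Without doxo library 2 the cholesterol synthesis median was 0.12. Of 37 drug and fatty acid P450 genes 1 lay wholly above, Cyp2c54, at 157, 146, 165 and 153 TPM in control and 189, 180, 216 and 210 TPM in doxo libraries (log2 fold change 0.35). Of 16 clock genes 1 lay wholly above, the output factor Dbp (log2 fold change 0.50). Sult5a1, a sulfotransferase gene, had a log2 fold change of -0.89, the WNT feedback gene Nkd1 0.52, the exosome tetraspanin gene Cd63 0.61, and the acute phase gene Orm2 0.68, each with overlapping groups.

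Most list medians were higher without doxo library 2, while those of the mitochondrially encoded genes, the snoRNA host RNAs and the adipocyte genes were lower. With all 8 libraries 17 of 49 lists had a positive median, and without it 45 did, as the median of all genes went from -0.08 to 0.10. Wholly lower genes then numbered 54 (0.496%). The male-biased, Kupffer cell, B and plasma cell and neutrophil lists were the 4 that stayed negative.

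**Figure D5:**
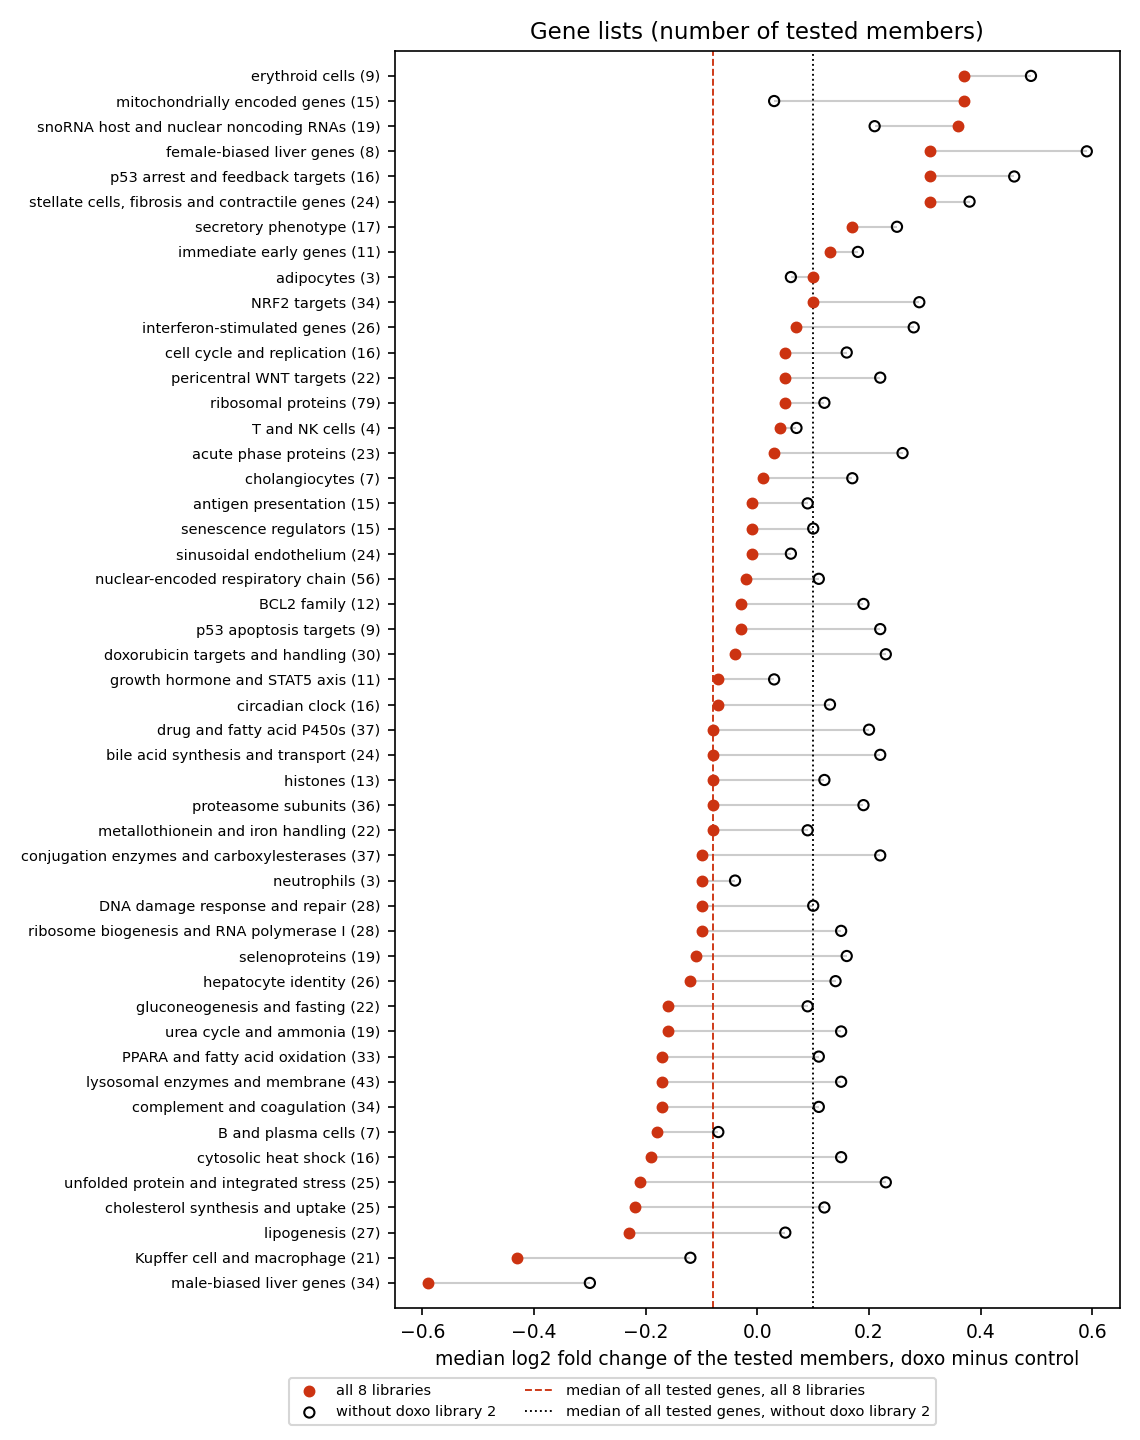
Median log2 fold change of doxo minus control (x axis) of the tested members of 49 gene lists (y axis, number tested in brackets), with all 8 libraries (red) and without doxo library 2 (open circles); the vertical lines are the medians of all genes, -0.08 (dashed) and 0.10 (dotted). Most lists shift to the right without library 2, while the male-biased genes stay lowest.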

How the data were processed

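RNA of 12 mouse liver libraries was extracted with TRIzol and treated with DNase, per the labels' protocols. The authors deposited TPM for 55903 genes; fastp, HISAT and RSEM are named without versions or order in the submitters' processing notes. For the genome build, annotation and strandedness the sources used here give nothing, so overlapping and antisense genes are uncertain. Of 55487 Ensembl identifiers 55227 were found in GENCODE M21; 416 loci are assembled transcripts without a symbol.

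Genes with a mean of at least 1 TPM were analysed as log2(TPM + 1) with limma 3.58.1 in R 4.3.3, with an intensity trend, group as the only term and all 12 libraries in the fit. Tests were two-sided, adjusted by Benjamini-Hochberg over 10883 genes at 0.05. The procedure was run on simulated data and checked for the mean error and sign of the changes put in. Its recovery of changes and its false calls there are not given here. Library measures were compared over all 70 divisions with an exact permutation test, two-sided, adjusted over the 4 measures. Named genes were any passing gene, the 12 established symbols of smallest p without overlap in each direction, up to 4 members of smallest p per list, and any member of the p53, senescence, secretory and doxorubicin lists. Members and lists were chosen with earlier results of these data known. Alternatives covered pseudocount, filter, scaling, replicate block, weights, a gene-length covariate and each library left out. Promoters were RefSeq windows on GRCm38.p6. Figures used matplotlib 3.10.9 in Python 3.11.15.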

Additional observations from a re-analysis of the deposited data

Results flagged for a closer look

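Values were set aside where, within a group of 4 libraries, 1 library lay far from the other 3 by Dixon's criterion, which chance meets in about 1 in 20 groups. Of 184 groups tested 13 met it, 8 of them through doxo library 2, 3 through doxo library 4, 1 through doxo library 1 and 1 through control library 4. Doxo library 2 lay apart in its mitochondrial share of TPM (27.57%, others 9.82% to 11.5%) and in the share of its 50 most abundant genes (68.43%, others 52.1% to 54.4%). It also lay apart for mt-Co1 at 59680.93 TPM, Gstm1 at 4304.62 TPM, Rb1 at 15.99 TPM and Rpph1 at 13.88 TPM, all above the other doxo libraries, and for Phlda3 at 2.84 TPM and Hmgb1 at 23.11 TPM, below them. Doxo library 4 lay apart for Dpt at 6.66 TPM and Col1a1 at 2.32 TPM, above the others, and for Gsta1 at 8.62 TPM, below them. Doxo library 1 was high for Ugt2b38 at 11.72 TPM, and control library 4 was high for Gstm2 at 75.91 TPM.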

How the results depend on the processing

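As reported, 1 gene passed the adjusted threshold, 215 had an unadjusted p under 0.05 and 109 separated the groups. Genes passing numbered 2 with a pseudocount of 0.1 or 0.01, with quantile normalization or with the slope on gene length as a covariate, and 3 with median-of-ratios scaling or with a total without mitochondrial and the 50 most abundant genes. They numbered 0 with no filter, with the compared libraries alone or with a replicate block, and 74 with array weights, which gave doxo library 2 the lowest weight of all libraries (0.08). Unadjusted calls numbered 816 with no filter, 86 with a mean TPM of at least 5, 355 with median-of-ratios scaling, 349 with quantile normalization, 331 with the trimmed total, 375 with the length covariate, 1447 with array weights and 336 without both control library 1 and doxo library 2. Separated genes numbered 320 with no filter, 39 with a mean TPM of at least 5 and 595 without both libraries. Leaving out each library gave 0 to 2 passing genes (0 without control library 2 or 3, doxo library 1, 3 or 4, or KSL0608-Se library 1), 145 to 353 unadjusted calls (337 without control library 1, 353 without doxo library 1) and 141 to 361 separated genes (204 or more without any library but control 3). Fewer libraries make separation easier. The replicate block left 193 unadjusted calls. Same-numbered control and doxo libraries deviated from their group means with r from -0.58 to 0.228. So few values cannot settle whether the numbers pair the libraries.

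Of 88 named genes 23 moved by over 1.5 times or changed sign without doxo library 2, and 14 without control library 1. In all, 8 changed sign under at least 1 alternative. Without doxo library 2 Bid was 0.07, Perp 0.19, Cyb5r3 0.02 and Cat 0.08. With array weights Trp53i13 was -0.14, Perp 0.22 and Cat 0.08. Perp was 0.03 without both libraries, Cdkn2c 0.01 without control library 4, Gadd45a -0.1 without control library 1, and Trp53i13 -0.0 without control library 1 or doxo library 4. Over single libraries left out, values ran from -0.36 to 0.07 for Bid, -0.0 to 0.24 for Trp53i13, -0.35 to 0.19 for Perp, -0.31 to 0.01 for Cdkn2c, -0.38 to 0.02 for Cyb5r3, -0.44 to 0.08 for Cat -0.1 to 0.5 for Gadd45a and -0.12 to 0.26 for Hmgb1. Hmgb1, at -0.01 as reported, was also 0.08 with median-of-ratios scaling, 0.07 with quantile normalization, 0.02 with the trimmed total, 0.01 with the length covariate, 0.36 with array weights and 0.25 without both libraries. The cause was not tested. The 12 leading higher genes stayed positive and the 12 leading lower genes negative in all alternatives run. Depth is unknown.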
